A study of Mus musculus with 10 samples.

Results

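Toll-like receptors are pattern recognition receptors of innate immune cells, and Myd88 is the adaptor protein that most of them use to signal. The 10 genes described here were the mouse receptors Tlr1, Tlr2, Tlr3, Tlr4, Tlr6, Tlr7, Tlr8, Tlr9 and Tlr13 together with Myd88, taken by symbol from GENCODE M21 out of 55385 mouse genes counted. They were measured by bulk RNA sequencing in 10 libraries of Tomato+ neutrophils isolated from squamous cell carcinomas (SCC) grafted onto CatchupIVM-red mice. Host animals of this kind carry a red fluorescent Tomato reporter that is linked to the neutrophil gene Ly6g, and the cells were isolated by that reporter. The grafted cells were either the parental Sox2low control line or a Sox2Hi SCC line, and all tumours were established before treatment. The sample descriptions mark every library C57, control grafts GFP and Sox2Hi grafts Sox2, and do not explain these marks further. The 4 groups were control naive (Sox2low graft, untreated, n = 3), control treated (Sox2low graft, anti-PDL1/CD40 agonist, n = 2), Sox2Hi naive (Sox2Hi graft, untreated, n = 3) and Sox2Hi treated (Sox2Hi graft, anti-PDL1/CD40 agonist, n = 2). Dose, sampling time, age and number of clones are not given in the sources used here. The stated purpose was to find out whether Sox2 in the tumour cells restrains the response of neutrophils to interferons, and the receptors and their adaptor are followed here through the same groups.

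At the cell surface, Tlr2 pairs with Tlr1 or Tlr6 to bind microbial lipopeptides, and Tlr4 binds lipopolysaccharide together with Cd14 and Ly96. Inside endosomes, Tlr3 binds double-stranded RNA, Tlr7 binds single-stranded RNA and Tlr9 binds unmethylated CpG DNA. Tlr13, a receptor of mice absent from humans, binds bacterial ribosomal RNA there, and Tlr8 is an endosomal receptor too. Myd88 recruits Irak kinases and leads to NF-kB activation and cytokine transcription, while Tlr3 signals through the adaptor Ticam1 instead. Neutrophils are known to carry most of these receptors and to respond to their ligands by releasing cytokines and granule contents.

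The libraries held between 13815734 and 22986193 gene counts. Reads were also found over 1464 olfactory and vomeronasal receptor genes, which are taken here as silent, and their rate per kb gave an expected background of 5.02 to 8.37% of counts in control naive, 1.58 to 1.74% in control treated, 3.63 to 3.92% in Sox2Hi naive and 4.04 to 4.96% in Sox2Hi treated libraries. The control treated libraries thus stood apart, with the lowest background and with scaling factors of 0.710 to 0.725 against 0.873 to 1.22 in the other 8. CPM are counts scaled to library size. Because the background weighs on low genes, CPM and tests use scaling factors computed from the 11270 genes averaging 5 CPM or more. Results with factors from all 29648 genes tested (all-gene scaling) are given for the genes named where a call differs, and for part of the gene lists. Of 20 neutrophil markers, 19 were tested, and together they held 1.66 to 3.61% of counts over the 10 libraries. Ly6g itself was at 1.62 to 3.26 CPM in control naive, 11.5 to 18.3 CPM in control treated, 1.86 to 3.10 CPM in Sox2Hi naive and 5.45 to 9.79 CPM in Sox2Hi treated libraries. Reads of the gene Ddx3y were at most 8 in 4 libraries and at least 1007 in 6, and each group had libraries of both kinds. The labels do not say whether libraries came from separate animals, so p-values measure the spread between these libraries only. In bulk RNA a lower share of a cell type and less RNA per cell cannot be told apart.

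Levels can be compared between genes only per length of exon, and that scale (CPM per kb) is used for the order of the members. Tlr6, Tlr13 and Tlr2 were the most abundant in every group, with means over the 10 libraries of 80.2, 76.6 and 63.4 CPM per kb. Myd88 followed at 15.2 CPM per kb, then Tlr4 at 10.9 and Tlr1 at 9.54 CPM per kb. Tlr7, Tlr8 and Tlr3 were low at 3.04, 2.61 and 1.39 CPM per kb, and Tlr9 was last at 0.219 CPM per kb. Within control naive tumours the library ranges of Tlr6 (37.0 to 64.6 CPM per kb), Tlr13 (37.3 to 60.5) and Tlr2 (26.5 to 42.0) overlapped for each neighbouring pair, as did those of Myd88 (7.53 to 10.3) and Tlr4 (4.59 to 8.24) and those of Tlr8, Tlr7 and Tlr3. The step from Tlr2 down to Myd88 showed no overlap there. In control treated tumours Tlr1 (22.6 to 25.8 CPM per kb) came after Tlr2 in group mean and above Myd88 (15.8 to 31.7) and Tlr4 (18.1 to 24.4), and the ranges of these 3 genes overlapped. All 10 members passed the filter on low counts, and 9 averaged 5 CPM or more, the exception being Tlr9.

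Background touched the members unequally. It equalled 108 to 175% of the counts of Tlr9 over the libraries, which had only 5 to 23 reads, so its reads did not exceed those over silent genes per kb. For Tlr3 the expected background was 12.7 to 37.1% of counts, for Tlr7 2.92 to 24.3% and for Tlr8 3.76 to 24.0%. It was at most 13.3% for Tlr1, 7.26% for Tlr4 and 5.60% for Myd88, and at most 1.37% for Tlr2, Tlr6 and Tlr13. Sequence shared with other genes also differed between members. Tlr1 and Tlr6 lie next to each other on chromosome 5 and are close relatives, and 18.3% of the 31-base words in Tlr1 transcripts occur in Tlr6 transcripts, so estimated counts can divide reads between them. Of the words of Tlr3, 6.10% occur on the opposite strand in the antisense gene Gm45542, and of the words of Myd88, 8.93% occur on the opposite strand in Acaa1a. Because the strand setting of the counting is not given in the sources used here, reads of those overlaps cannot be assigned with certainty. Tlr2, Tlr7, Tlr8, Tlr9 and Tlr13 shared 0 such words with other genes.

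**Figure D1:**
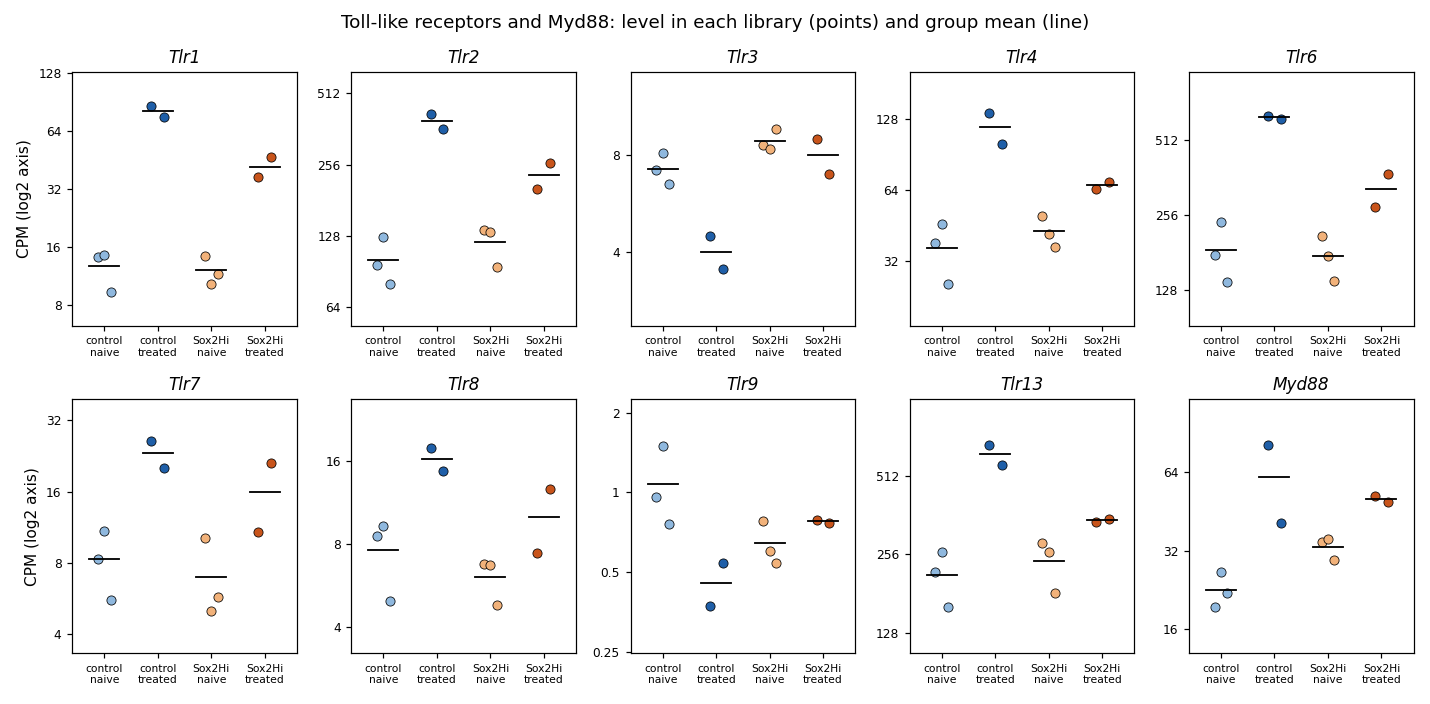
Level of each gene in the 10 libraries, in CPM on a log2 axis that differs between panels, with points for libraries and a black line for the group mean. In Tlr1 the 2 control treated libraries lie at 75.5 and 86.2 CPM against 9.34 to 14.5 CPM in control naive libraries, while in Tlr3 and Tlr9 they lie lower than the naive ones.

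Treatment with anti-PDL1/CD40 agonist in control tumours went with a rise of 8 of the 10 genes and a fall of 2. The receptors for lipopeptides and lipopolysaccharide (Tlr1, Tlr2, Tlr6, Tlr4), the endosomal receptors Tlr7, Tlr8 and Tlr13 and the adaptor Myd88 rose by 2.14- to 6.38-fold, while Tlr3 and Tlr9 fell. In the edgeR quasi-likelihood test with Benjamini-Hochberg adjustment, 12.5% of all genes tested were called higher, or 28% of the genes averaging 5 CPM or more, and 36.1% of all genes were called lower. The control groups did not overlap in any of the 10, but of all genes averaging 5 CPM or more 34.1% had both treated libraries above and 33.2% below the naive ones. The median log2 fold change of the 10 members was 1.51, beside -0.05 for the genes averaging 5 CPM or more. Change went with level in this comparison, and among the 1481 genes at 100 CPM or more 59.8% were called higher with a median of 0.67. For the 6324 genes between 10 and 100 CPM these values were 30.6% and 0.074. For the 13576 genes between 1 and 10 CPM, the class of Tlr3 and Tlr8, they were 5.72% and -0.81, and 47.4% were called lower.

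Tlr1, the partner of Tlr2 for triacylated lipopeptides, had the largest log2 fold change of the 10. It was at 14.2, 14.5 and 9.34 CPM in the control naive libraries and at 86.2 and 75.5 CPM in the control treated libraries. Both treated libraries were far above all naive ones, and the groups did not overlap. The log2 fold change was 2.67 (SE 0.22, edgeR adjusted p = 2.56e-05). Tlr2 stood at 96.8, 127 and 80.0 CPM in naive and at 420 and 361 CPM in treated libraries, a log2 fold change of 1.95 (SE 0.22, edgeR adjusted p = 0.000126). Tlr6, which pairs with Tlr2 for diacylated lipopeptides, was at 177, 241 and 138 CPM in naive and at 640 and 620 CPM in treated libraries. Its log2 fold change was 1.77 (SE 0.24, edgeR adjusted p = 0.000362). For both genes every treated library exceeded every naive library.

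Tlr4, the lipopolysaccharide receptor, was at 38.1, 45.8 and 25.5 CPM in control naive and at 136 and 101 CPM in control treated libraries. The groups did not overlap, and the log2 fold change was 1.70 (SE 0.23, edgeR adjusted p = 0.000412). Tlr13, the sensor of bacterial ribosomal RNA, was the most abundant of the endosomal receptors, at 219, 261 and 161 CPM in naive and 673 and 566 CPM in treated libraries. This was a log2 fold change of 1.54 (SE 0.23, edgeR adjusted p = 0.000581), again without overlap. The endosomal receptors Tlr7 and Tlr8 were scarcer. Tlr7 was at 8.34, 10.95 and 5.58 CPM in naive and 26.2 and 20.2 CPM in treated libraries (log2 fold change 1.49, SE 0.36, edgeR adjusted p = 0.00695). Tlr8 was at 8.57, 9.26 and 4.98 CPM in naive and 17.9 and 14.6 CPM in treated libraries (1.10, SE 0.29, edgeR adjusted p = 0.0105). Both had no overlap between groups, and the rise of Tlr8 was not called without control treated replicate 1, where its log2 fold change was 0.92 (edgeR adjusted p = 0.066). Without control naive replicate 3 it was 0.72.

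Myd88 stood at 19.4, 26.5 and 21.9 CPM in control naive and at 81.7 and 40.8 CPM in control treated libraries. The pair of treated libraries lay apart from each other, and both were above the naive ones. The log2 fold change was 1.44 (SE 0.25, edgeR adjusted p = 0.00139), and it was 0.82 without control treated replicate 1 and 1.87 without control treated replicate 2. All 8 rising genes kept their call with all-gene scaling, where 18.7% of all genes and 40% of those averaging 5 CPM or more were called higher. With library totals only, where 11.5% of the latter were called higher, 7 kept it and Tlr8 did not (0.46, edgeR adjusted p = 0.13).

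Tlr3, the receptor for double-stranded RNA that does not use Myd88, went the other way. It was at 7.16, 8.08 and 6.50 CPM in control naive and at 4.47 and 3.54 CPM in control treated libraries, the latter resting on 59 and 60 reads. Its log2 fold change was -0.86 (SE 0.22, edgeR adjusted p = 0.0084). Genes averaging 1 to 10 CPM, the class of Tlr3, had a median of -0.81, and 47.4% of them were called lower. DESeq2 gave -0.25 for Tlr3, which was not called (DESeq2 adjusted p = 0.499). With all-gene scaling its change of -0.43 was not called (edgeR adjusted p = 0.111), and without control treated replicate 2 the call was lost as well (edgeR adjusted p = 0.081). Tlr9, at 0.958, 1.499 and 0.762 CPM in naive and 0.372 and 0.540 CPM in treated libraries, gave a log2 fold change of -1.19 (SE 0.45, edgeR adjusted p = 0.0435). Its reads lie at the level of the background, which was itself lower in the control treated libraries, and 2 of 10 alternative settings called it. With all-gene scaling the change of Tlr9 was -0.75 and was not called (edgeR adjusted p = 0.157).

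Marker genes of cell types moved in the same comparison. Of the 19 neutrophil markers tested, 17 rose and 0 fell, with a median log2 fold change of 1.68, and their summed share went from 1.66 to 2.59% of counts in control naive to 3.53 to 3.61% in control treated libraries. Macrophage and monocyte markers, of which 4 of 12 rose and 1 fell, held 0.0946 to 0.142% of counts in naive and 0.104 to 0.141% in treated libraries, and none of the 12 was at 0. T and NK cell markers, of which 5 of 10 rose and 1 fell, held 0.00556 to 0.00883% and 0.0109 to 0.0367%. Some markers of other cells fell. Of 8 fibroblast and endothelial markers 6 fell, and their share went from 0.0298 to 0.0821% of counts in naive libraries to 0.00738 to 0.00927% in treated ones. Of 7 keratinocyte and carcinoma markers 5 fell, with shares of 0.0496 to 0.166% and 0.0268 to 0.0561%, ranges that overlap. With all-gene scaling 3 and 1 of these were called lower. Plasmacytoid dendritic cells, which are known to carry Tlr7 and Tlr9, had 2 of 5 markers lower, with shares of 0.00556 to 0.00662% in naive and 0.00219 to 0.00255% in treated libraries and 0 called with all-gene scaling. Of 8 dendritic cell markers 2 fell and 1 rose, with shares of 0.0042 to 0.00714% and 0.00288 to 0.00379%. With all-gene scaling 4 of them rose and 1 fell. Of the macrophage and monocyte markers 7 then rose and 0 fell, and of the T and NK cell markers 6 rose and 0 fell. The part of these markers in the change of the receptors was not tested.

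Because 8 members moved together, the bases before their annotated start sites were searched for 4 short motifs on both strands. Windows of 250 bases from RefSeq (GRCm38.p6) were at hand for 8 of the 10 members, 10 windows in all, out of 32851. The letters GAAANNGAA, part of the interferon-stimulated response element, were in 7.13% of all windows, in 1 of 2 windows of Tlr6 and in those of Myd88 and Tlr8. The letters TTCNNNGAA, part of the site bound by STAT dimers, were in 7.02% of all windows and in those of Myd88, Tlr8 and 1 of Tlr1. GAGGAAGT, a form of the site of the myeloid factor PU.1, was in 2.44% of all windows and in 1 of Tlr1. GGNNTTTCC, a form of the NF-kB site, was in 4.93% of all windows and in that of Tlr3. The 4 windows printed here are those whose matches all lie outside exons of GENCODE M21. They run 5′ to 3′ on the minus strand, toward the start site, with matches in capitals and with 23 exon bases left out at the end of the Myd88 window and 5 at that of Tlr1. In Tlr6 (chr5:64959167-64959416) a pair of overlapping GAAANNGAA matches on the opposite strand covers bases -115 to -101, counted from the start site. In Myd88 (chr9:119340042-119340268) TTCNNNGAA at -46 to -38 overlaps GAAANNGAA at -40 to -32. In Tlr8 (chrX:167264330-167264579) TTCNNNGAA is at -106 to -98 and GAAANNGAA, on the opposite strand, at -67 to -59. In Tlr1 (chr5:64933564-64933808) GAGGAAGT is at -23 to -16.
Tlr6: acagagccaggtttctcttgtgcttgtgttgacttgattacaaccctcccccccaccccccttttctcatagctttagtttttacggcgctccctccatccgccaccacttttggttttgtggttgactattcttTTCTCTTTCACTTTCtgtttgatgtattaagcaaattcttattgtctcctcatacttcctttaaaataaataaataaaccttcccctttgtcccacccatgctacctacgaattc
Myd88: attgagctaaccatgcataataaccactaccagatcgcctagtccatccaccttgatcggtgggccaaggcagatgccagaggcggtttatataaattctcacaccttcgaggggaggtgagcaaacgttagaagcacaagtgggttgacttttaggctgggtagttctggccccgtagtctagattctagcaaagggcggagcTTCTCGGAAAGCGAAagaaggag
Tlr8: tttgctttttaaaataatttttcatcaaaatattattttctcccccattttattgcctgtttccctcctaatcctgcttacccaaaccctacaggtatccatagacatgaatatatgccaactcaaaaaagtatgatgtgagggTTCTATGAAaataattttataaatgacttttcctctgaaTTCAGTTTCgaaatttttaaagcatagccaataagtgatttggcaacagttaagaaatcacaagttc
Tlr1: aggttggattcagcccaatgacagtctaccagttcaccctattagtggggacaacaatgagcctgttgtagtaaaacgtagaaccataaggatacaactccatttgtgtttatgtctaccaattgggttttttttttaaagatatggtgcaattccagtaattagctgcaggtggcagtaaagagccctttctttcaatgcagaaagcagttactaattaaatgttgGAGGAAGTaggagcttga
Tlr2 and Tlr13, which rose by 3.87- and 2.90-fold, had no match to the letters of these 4 motifs in their windows. Of the 250 bases of each window, 159 in Tlr2 and 71 in Tlr13 lie in exons of GENCODE M21. Other forms of these sites were not searched for, and the Tlr2 window holds gggaattccc, which GGNNTTTCC cannot match. A match is a description of letters, and no binding was measured in these data.

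In Sox2Hi tumours 2 of the 10 genes, Tlr1 and Tlr2, rose on the same treatment, and 0 fell. The background of genes called higher by edgeR was 3.36% of all tested, or 7.25% of those averaging 5 CPM or more. Tlr1 was at 14.3, 10.3 and 11.6 CPM in Sox2Hi naive and at 36.8 and 46.5 CPM in Sox2Hi treated libraries. Its log2 fold change was 1.79 (SE 0.22, edgeR adjusted p = 0.00117), without overlap, and it was called in every one of 12 alternative settings and 10 fits without 1 library. Tlr2 was at 135, 133 and 94.4 CPM in naive and 202 and 260 CPM in treated libraries (log2 fold change 0.93, SE 0.22, edgeR adjusted p = 0.034). With all-gene scaling, where 1.79% of all genes and 4% of those averaging 5 CPM or more were called higher, only Tlr1 of the 10 was called, and Tlr2 had an edgeR adjusted p of 0.0587.

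The other 8 members were not called, although in 6 of them every treated library lay above every naive one, a separation also found in 32.6% of all genes averaging 5 CPM or more. Tlr6 was at 211, 175 and 139 CPM in Sox2Hi naive and 275 and 372 CPM in Sox2Hi treated libraries, a log2 fold change of 0.89 (SE 0.24, edgeR adjusted p = 0.0526). Tlr4 went from 49.9, 41.8 and 36.5 CPM to 64.8 and 69.4 CPM (0.65, SE 0.24, edgeR adjusted p = 0.124). Tlr13 went from 284, 261 and 182 CPM to 340 and 351 CPM (0.51, SE 0.23, edgeR adjusted p = 0.194). Myd88 went from 34.5, 35.6 and 29.5 CPM to 51.8 and 49.4 CPM (0.61, SE 0.25, edgeR adjusted p = 0.165).

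Among the other endosomal receptors, Tlr7 was at 10.2, 4.99 and 5.75 CPM in Sox2Hi naive and 10.8 and 21.2 CPM in Sox2Hi treated libraries (log2 fold change 1.19, SE 0.36, edgeR adjusted p = 0.0767). Tlr8 was at 6.75, 6.70 and 4.82 CPM in naive and 7.43 and 12.6 CPM in treated libraries (0.72, SE 0.30, edgeR adjusted p = 0.168). In both genes the pair of treated libraries differed widely, with replicate 2 the higher. Tlr3, at 8.56, 8.34 and 9.64 CPM against 8.94 and 6.99 CPM, had a log2 fold change of -0.15 (SE 0.20, edgeR adjusted p = 0.669) and overlapping groups. Tlr9 was at 0.782, 0.604 and 0.541 CPM against 0.786 and 0.769 CPM, at the level of the background. The median log2 fold change of the 10 members was 0.68, beside 0.025 for the genes averaging 5 CPM or more.

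Of the neutrophil markers 7 of 19 rose in Sox2Hi tumours and 0 fell, with a median of 0.68, and their share of counts was 1.72 to 2.34% in naive and 2.21 to 2.52% in treated libraries. None of the 8 fibroblast and endothelial markers was called, but their share went from 0.0512 to 0.0759% in naive to 0.0103 to 0.0324% of counts in treated libraries, without overlap. Of the macrophage and monocyte markers 1 of 12 rose, of the T and NK cell markers 2 of 10 rose, and of the keratinocyte and carcinoma markers 1 of 7 fell. Of the dendritic cell markers 1 of 8 fell, and of the mast cell markers 1 of 6 rose. With all-gene scaling 0 of the macrophage and monocyte and 0 of the keratinocyte and carcinoma markers were called. The part of these markers in the change of the receptors was not tested. The number of members called depended on the libraries and the tool. It was 1 without control naive replicate 1, Sox2Hi naive replicate 3 or either Sox2Hi treated library, 4 without Sox2Hi naive replicate 1, 5 without control naive replicate 3, 4 with DESeq2 and 5 with limma-voom with quality weights. Of the genes averaging 5 CPM or more, 6.81%, 12%, 7.81% and 13.4% were called higher in these last 4 fits.

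**Figure D2:**
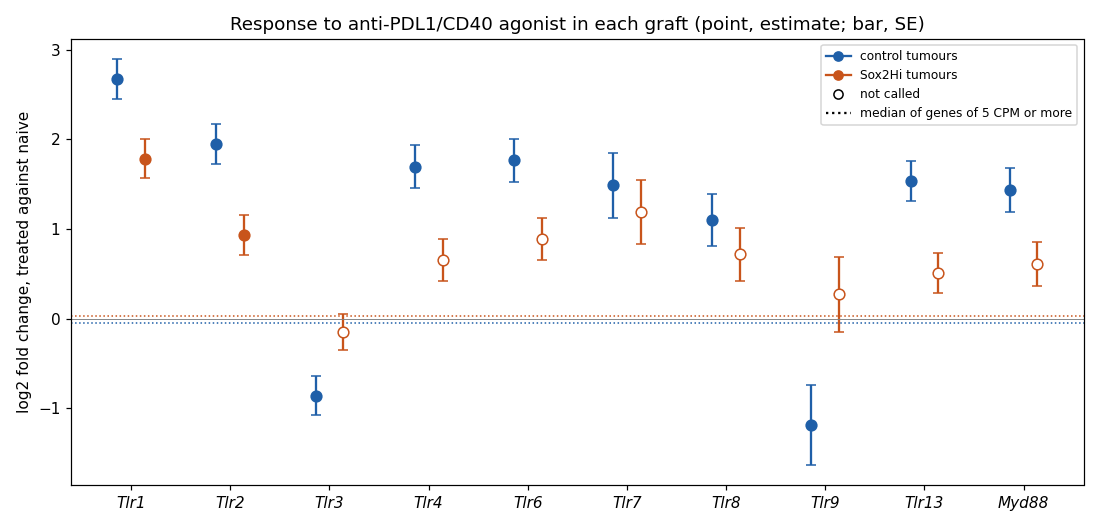
Log2 fold change of each gene on treatment in control (blue) and Sox2Hi (orange) tumours, with bars for the SE, filled points for genes called by edgeR and open points for the others. The 8 rising genes span 1.10 to 2.67 in control tumours, each has a lower estimate in Sox2Hi tumours, and the dotted medians of genes at 5 CPM or more lie at -0.05 and 0.025.

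Before treatment, none of the 10 genes was called between Sox2Hi naive and control naive tumours, where edgeR called 5.81% of all genes in either direction. Only Myd88 of the 10 had an unadjusted edgeR p under 0.05, beside 3127 of the 11270 genes averaging 5 CPM or more. With all-gene scaling 5 of the 10 did, beside 4888 of the 11270 genes. Myd88 was at 19.4, 26.5 and 21.9 CPM in control naive and at 34.5, 35.6 and 29.5 CPM in Sox2Hi naive libraries, so the libraries of the grafts did not overlap. Its log2 fold change was 0.55 (SE 0.23, edgeR adjusted p = 0.125). Tlr3 also showed no overlap, with 6.50 to 8.08 CPM in control naive and 8.34 to 9.64 CPM in Sox2Hi naive libraries (0.29, SE 0.18, edgeR adjusted p = 0.283). In the other 8 genes the grafts overlapped. Of all genes averaging 5 CPM or more, 34.5% had naive grafts that did not overlap, beside 2 of 10 here. The estimates of Tlr1 (-0.07), Tlr6 (-0.08) and Tlr7 (-0.24) became positive with all-gene scaling (0.23, 0.22 and 0.062). DESeq2 called 5 members higher in Sox2Hi naive tumours (Tlr2, Tlr3, Tlr4, Tlr13 and Myd88), with 12.3% of all genes and 31% of those averaging 5 CPM or more higher. Limma-voom with quality weights called 1, Myd88, with 6.35% of all genes and 14.2% of those averaging 5 CPM or more higher. The median of the 10 was 0.057, beside 0.037 for the genes averaging 5 CPM or more.

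After treatment, Tlr1, Tlr6 and Tlr13 were lower in Sox2Hi than in control tumours and Tlr3 was higher. The background for these 4 calls by edgeR was 3.29% of all genes lower, or 7.74% of those averaging 5 CPM or more, and 9.69% of all genes higher. At 100 CPM or more, the class of Tlr6 and Tlr13, 28.2% of genes were lower. Between 1 and 10 CPM, the class of Tlr3, 14.0% of genes were higher, with a median of 0.58. Tlr1 was at 36.8 and 46.5 CPM in Sox2Hi treated against 86.2 and 75.5 CPM in control treated libraries, a log2 fold change of -0.96 (SE 0.24, edgeR adjusted p = 0.0309). Tlr6 was at 275 and 372 CPM against 640 and 620 CPM (-0.96, SE 0.27, edgeR adjusted p = 0.0393). Tlr13 was at 340 and 351 CPM against 673 and 566 CPM (-0.84, SE 0.25, edgeR adjusted p = 0.0475). Tlr3 was at 8.94 and 6.99 CPM against 4.47 and 3.54 CPM (1.00, SE 0.23, edgeR adjusted p = 0.0255). In these 4 genes the treated grafts did not overlap, which with 2 libraries against 2 also held for 34.1% of all genes averaging 5 CPM or more in the lower and 28.8% in the higher direction.

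Tlr2 (202 and 260 against 420 and 361 CPM) and Tlr4 (64.8 and 69.4 against 136 and 101 CPM) showed no overlap either, but did not pass the threshold, with log2 fold changes of -0.76 (edgeR adjusted p = 0.0588) and -0.82 (edgeR adjusted p = 0.0566). Tlr8 had a log2 fold change of -0.70 (edgeR adjusted p = 0.143), also without overlap. Tlr7 (-0.54) and Myd88 (-0.27) overlapped between grafts, Myd88 lying at 51.8 and 49.4 CPM against 81.7 and 40.8 CPM. The median of the 10 was -0.73, beside -0.07 for the genes averaging 5 CPM or more and -0.49 for those at 100 CPM or more.

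With all-gene scaling, 6 members were called lower in Sox2Hi treated tumours (Tlr1, Tlr2, Tlr4, Tlr6, Tlr8 and Tlr13), with 9.62% of all genes and 22.3% of those averaging 5 CPM or more lower, and Tlr3 was not called (0.66, edgeR adjusted p = 0.0637). DESeq2 called 8 members lower, with 38.7% of the genes averaging 5 CPM or more lower. With the expected background subtracted from the counts of all genes, no member was called, with log2 fold changes of -0.83 for Tlr1, -0.81 for Tlr6 and -0.69 for Tlr13. None of the 3 lower calls was left without any 1 of the 4 treated libraries. Tlr3 alone was then called, higher, without control treated replicate 1 or Sox2Hi treated replicate 2, and no member without control treated replicate 2 or Sox2Hi treated replicate 1. Without control naive replicate 1 or Sox2Hi naive replicate 2, 2 members were called, Tlr1 lower and Tlr3 higher. Of the neutrophil markers, 7 of 19 were lower in Sox2Hi treated tumours with a median of -0.77, and they held 2.21 to 2.52% of counts there against 3.53 to 3.61% in control treated libraries. Other markers called in this comparison were 2 of 6 for mast cells, 2 of 7 for keratinocytes and carcinoma and 1 of 8 for fibroblasts and endothelium, all higher, and 1 of 12 for macrophages and monocytes, lower. With all-gene scaling no marker was called higher. The lower calls were then 12 for neutrophils, 1 for macrophages and monocytes and 1 for dendritic cells. The fibroblast and endothelial share was 0.0103 to 0.0324% against 0.00738 to 0.00927% in control treated libraries, without overlap. The part of these markers in the differences of the receptors was not tested. Expected background was lower in the control treated libraries, at 0.100 to 0.127% of the counts of Tlr6 and Tlr13 against 0.354 to 0.497% in Sox2Hi treated libraries.

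**Figure D3:**
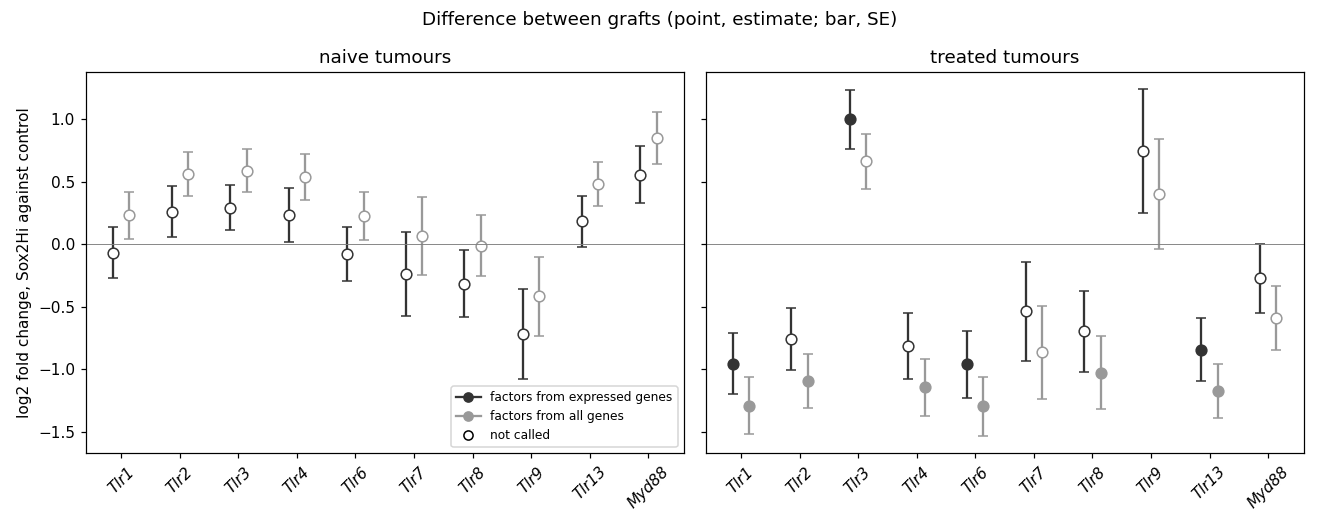
Log2 fold change between Sox2Hi and control tumours for each gene, naive on the left and treated on the right, with factors from expressed genes (black) and from all genes (grey), bars for the SE and filled points for edgeR calls. No point is filled in naive tumours, while in treated tumours Tlr1, Tlr6 and Tlr13 are filled under both scalings and Tlr3 under the first alone.

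The direct test of whether treatment acted differently in the grafts is the interaction, the treatment change in Sox2Hi minus that in control tumours. Tlr1, Tlr2, Tlr4 and Tlr13 had a lower treatment change in Sox2Hi than in control tumours by this test, and none of the 10 was called in the other direction, in which edgeR called 26.8% of all genes and 15.4% of those averaging 5 CPM or more. The background was 4.41% of all genes with a lower interaction by edgeR, or 10.8% of those averaging 5 CPM or more. At 100 CPM or more, the class of Tlr2 and Tlr13, it was 31.3%. The interaction was -0.89 for Tlr1 (SE 0.32, edgeR adjusted p = 0.0494), -1.02 for Tlr2 (SE 0.32, edgeR adjusted p = 0.0316), -1.05 for Tlr4 (SE 0.34, edgeR adjusted p = 0.0352) and -1.03 for Tlr13 (SE 0.32, edgeR adjusted p = 0.033). Tlr6 (-0.88, edgeR adjusted p = 0.0665) and Myd88 (-0.83, edgeR adjusted p = 0.0895) did not pass the threshold. Tlr7 (-0.30) and Tlr8 (-0.38) had small estimates beside their SE of 0.52 and 0.42. Positive estimates of Tlr3 (0.71, edgeR adjusted p = 0.0807) and Tlr9 (1.46, edgeR adjusted p = 0.0826) were not called. Of the genes averaging 1 to 10 CPM, the class of Tlr3, 38.0% were called higher, with a median of 1.02. The median of the 10 was -0.85, beside -0.17 for the genes averaging 5 CPM or more and -0.57 for those at 100 CPM or more.

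These interaction calls did not hold in every setting. Without control naive replicate 3 the values were -0.50 for Tlr1, -0.67 for Tlr2, -0.64 for Tlr4 and -0.65 for Tlr13, and without Sox2Hi naive replicate 1 that of Tlr1 was -0.55. With all-gene scaling 6 members were called lower (Tlr1, Tlr2, Tlr4, Tlr6, Tlr13 and Myd88), with 16.3% of all genes and 39.2% of those averaging 5 CPM or more lower. DESeq2 called 7, with 53.3% of the genes averaging 5 CPM or more lower. With library totals only, all 4 lower calls were lost, and Tlr3 (1.08) and Tlr9 (1.81) were called higher. With the background subtracted 0 were called, with log2 values of -0.71 for Tlr1, -0.74 for Tlr2, -0.84 for Tlr4 and -0.75 for Tlr13. Without Sox2Hi naive replicate 3 the count was 3, Tlr2 and Tlr13 lower and Tlr3 higher. The count was 0 without control naive replicate 1, control treated replicate 1, Sox2Hi naive replicate 1 or 2, or Sox2Hi treated replicate 1. It was 2 without control treated replicate 2 (Tlr4 and Myd88, lower), 1 without Sox2Hi treated replicate 2 (Tlr2, lower), and 2 without control naive replicate 3, these being Tlr3 (0.98) and Tlr9 (1.86), both higher.

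Ratios between members within a library do not depend on the scaling of libraries. They were compared between treated and naive libraries with the graft kept fixed, by a two-sided exact permutation test over 100 arrangements, whose smallest p is 0.01, with Benjamini-Hochberg adjustment over 6 ratios. The ratio of Tlr1 to Tlr2 per kb was 0.132, 0.103 and 0.105 before and 0.185 and 0.188 after treatment of control tumours. In Sox2Hi tumours it was 0.0955, 0.0697 and 0.110 before and 0.164 and 0.162 after treatment. Relative to its partner, Tlr1 was thus higher in all 4 treated libraries than in any naive library. The difference was 0.79 on the log2 scale (exact permutation p = 0.01, adjusted 0.03), 0.72 in control and 0.85 in Sox2Hi tumours.

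Tlr13 lost ground to Tlr2. Their ratio was 1.41 to 1.59 in control naive and 1.10 to 1.12 in control treated libraries, and 1.35 to 1.47 in Sox2Hi naive and 0.947 to 1.18 in Sox2Hi treated libraries. No treated library reached a naive one of its graft, and the log2 difference was -0.41 (exact permutation p = 0.01, adjusted 0.03). Myd88 to Tlr2 fell as well, by 0.47 on the log2 scale (exact permutation p = 0.02, adjusted 0.04). It was 0.234 to 0.321 in control naive and 0.132 to 0.227 in control treated libraries, but 0.299 to 0.366 and 0.223 to 0.2998 in Sox2Hi tumours, where the ranges touched. With background subtracted from both genes its adjusted p was 0.06. The value was -0.66 without control treated replicate 1 and -0.27 without control treated replicate 2, and 1 of 10 tests without 1 library stayed at an adjusted p under 0.05. The values of Tlr1 to Tlr2 (0.69 to 0.86) and Tlr13 to Tlr2 (-0.49 to -0.33) moved less without 1 library, and these also had 1 such test of 10, with fewer arrangements. Tlr4 to Tlr2 (-0.26, exact permutation p = 0.05, adjusted 0.06) and Tlr7 to Tlr8 (0.44, exact permutation p = 0.04, adjusted 0.06) missed the threshold after adjustment, as did Tlr6 to Tlr2 (-0.11, exact permutation p = 0.15). The last ratio did not overlap between naive grafts, with 1.40 to 1.54 in control naive and 1.06 to 1.26 in Sox2Hi naive libraries, which was seen in the values and not tested.

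**Figure D4:**
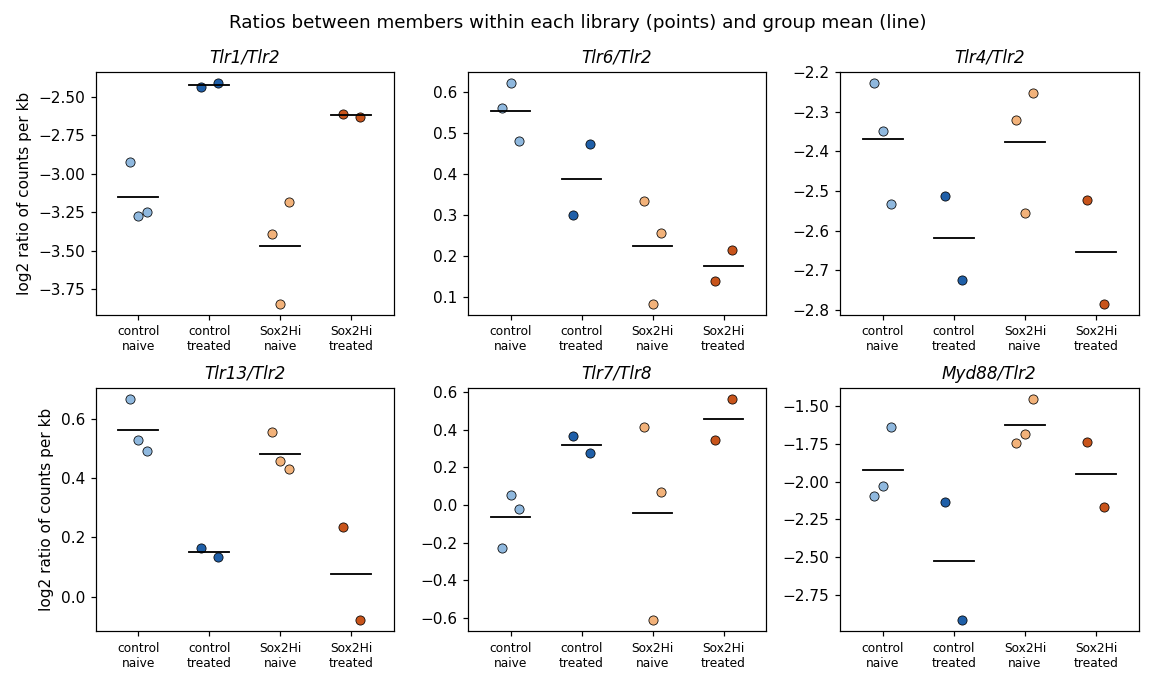
Log2 ratio of counts per kb between pairs of members in each library, with points for libraries and a line for the group mean. In the panel of Tlr1 to Tlr2 all treated libraries lie above all naive ones, and in that of Tlr13 to Tlr2 they lie lower within each graft.

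The genes that work with the receptors were followed in 8 lists of 85 genes, of which 84 were tested and 74 averaged 5 CPM or more. On treatment 53 of them rose and 3 fell in control tumours, and 13 rose and 3 fell in Sox2Hi tumours. Between naive grafts 2 were higher and 0 lower, between treated grafts 0 were higher and 16 lower, and 20 had a lower and 0 a higher interaction. With all-gene scaling these counts were 61 and 0, 10 and 4, 2 and 0, 0 and 35, and 0 and 49. Of all genes averaging 5 CPM or more, 28% were called higher in control and 7.25% in Sox2Hi tumours, 7.74% lower between treated grafts and 10.8% with a lower interaction, or 40%, 4%, 22.3% and 39.2% with all-gene scaling. The counts of the single lists rest on few genes, and their difference from these shares was not tested.

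Of 6 co-receptors and ligand transfer genes, 4 rose in control tumours and 0 in Sox2Hi tumours. Cd14, which hands lipopolysaccharide to Tlr4, stood at 5318 ± 1140 CPM (SD, n = 3) before and 14492 ± 1147 CPM (SD, n = 2) after treatment of control tumours, a log2 fold change of 1.45 (SE 0.22, edgeR adjusted p = 0.000672). Its interaction was -0.97 (edgeR adjusted p = 0.0358). Ly96, the partner of Tlr4, was lower in Sox2Hi treated tumours (22.6 ± 6.3 CPM, SD, n = 2) than in control treated tumours (43.2 ± 0.41 CPM, SD, n = 2), a log2 fold change of -0.94 (SE 0.24, edgeR adjusted p = 0.0309). Among 12 chaperones, trafficking and processing genes 5 rose in control and 2 in Sox2Hi tumours. Ctss, a protease that trims endosomal receptors, rose by 1.85 (SE 0.24, edgeR adjusted p = 0.000278) and 1.24 (SE 0.24, edgeR adjusted p = 0.0148). Hsp90b1, a chaperone that folds the receptors, fell in Sox2Hi tumours (-0.89, edgeR adjusted p = 0.0318). Ctsb, another lysosomal protease, had an interaction of -1.06 (edgeR adjusted p = 0.0283).

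Of 5 other adaptors with a TIR domain, Tirap, which bridges Tlr2 and Tlr4 to Myd88, and Pik3ap1 rose in control tumours, the latter by 1.14 (SE 0.21, edgeR adjusted p = 0.00171), and 0 rose in Sox2Hi tumours. Tirap was named after its values were seen. Pik3ap1 was lower in Sox2Hi treated tumours (-0.80, edgeR adjusted p = 0.0428) with an interaction of -1.08 (edgeR adjusted p = 0.0206). Of 21 signalling genes, 15 rose in control and 4 in Sox2Hi tumours. Irf7, the transcription factor that induces interferons downstream of Tlr7 and Tlr9, rose by 2.06 (SE 0.28, edgeR adjusted p = 0.000408) in control and 1.27 (SE 0.28, edgeR adjusted p = 0.0274) in Sox2Hi tumours. Map3k8, a kinase of the ERK branch, was lower in Sox2Hi treated tumours (-0.85, edgeR adjusted p = 0.0321), and Irak2, a kinase recruited by Myd88, had an interaction of -1.05 (edgeR adjusted p = 0.0148). Ube2v1, a ubiquitin-conjugating cofactor, was the 1 signalling gene called between naive grafts (0.67, SE 0.15, edgeR adjusted p = 0.0382).

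Inhibitors rose along with the receptors, 10 of 12 in control tumours with 1 lower, and 1 of 12 in Sox2Hi tumours with 1 lower. Tnip1, which restrains NF-kB, rose most in control tumours (2.1996, SE 0.25, edgeR adjusted p = 0.00013) and had an interaction of -1.36 (edgeR adjusted p = 0.018). Tnip3, a relative of it, rose most in Sox2Hi tumours (1.31, SE 0.25, edgeR adjusted p = 0.0146). Nfkbia, the inhibitor of NF-kB, was lower in Sox2Hi treated tumours (-0.79, edgeR adjusted p = 0.0455). Sigirr, a decoy-like member of the receptor family, fell in control (-1.12, edgeR adjusted p = 0.00698) and Sox2Hi tumours (-1.07, edgeR adjusted p = 0.0344) and was higher in Sox2Hi naive than in control naive tumours (0.90, edgeR adjusted p = 0.0416). Its fall in control tumours was not called with all-gene scaling (edgeR adjusted p = 0.0708).

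Of 6 interleukin receptor genes that share Myd88, 1 rose and 2 fell in control tumours, and with all-gene scaling 2 rose and 0 fell. Il18rap, a chain of the interleukin-18 receptor, rose by 1.17 (SE 0.21, edgeR adjusted p = 0.00185) and was lower in Sox2Hi treated tumours (-0.80, edgeR adjusted p = 0.048). Il1rl1, the interleukin-33 receptor, fell in control (-1.07, edgeR adjusted p = 0.00811) and Sox2Hi tumours (-1.23, edgeR adjusted p = 0.0225), the former not called with all-gene scaling (edgeR adjusted p = 0.118). It is also carried by mast cells, whose markers, 4 of 6 lower and 1 higher in control tumours, held 0.00382 to 0.0242% of counts in control naive and 0.000645 to 0.00204% in control treated libraries. In Sox2Hi tumours 0 of the 6 were lower and 1 was higher, with 0.00576 to 0.0102% of counts in naive and 0.00243 to 0.0064% in treated libraries. Their part in this change was not tested.

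Of 19 induced targets tested, 16 rose in control and 6 in Sox2Hi tumours, 8 were lower in Sox2Hi treated tumours and 7 had a lower interaction. Il12a, a subunit of interleukin-12, rose most in control tumours, from 7.25 ± 0.81 CPM (SD, n = 3) to 75.9 ± 4.1 CPM (SD, n = 2), a log2 fold change of 3.39 (SE 0.22, edgeR adjusted p = 5e-06). In Sox2Hi tumours the chemokine Ccl5 rose most (2.90, SE 0.42, edgeR adjusted p = 0.00288). It is also made by T and NK cells, whose markers held 0.00396 to 0.0118% of counts in Sox2Hi naive and 0.0155 to 0.0270% in Sox2Hi treated libraries, and their part was not tested. Ccl4, another chemokine, was lower in Sox2Hi treated tumours (-1.69, SE 0.39, edgeR adjusted p = 0.0255). The lowest interaction was that of Il23a, a subunit of interleukin-23 (-2.19, SE 0.34, edgeR adjusted p = 0.00292). In control tumours it stood at 68.9 ± 11.5 CPM before (SD, n = 3) and 224 ± 66 CPM after treatment (SD, n = 2). In Sox2Hi tumours it stood at 111 ± 28 CPM before (SD, n = 3) and 79.3 ± 0.74 CPM after treatment (SD, n = 2). The other receptors of the family, Tlr5, Tlr11 and Tlr12, had means of 3.95, 1.02 and 1.10 CPM and were not called in any comparison.

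**Figure D5:**
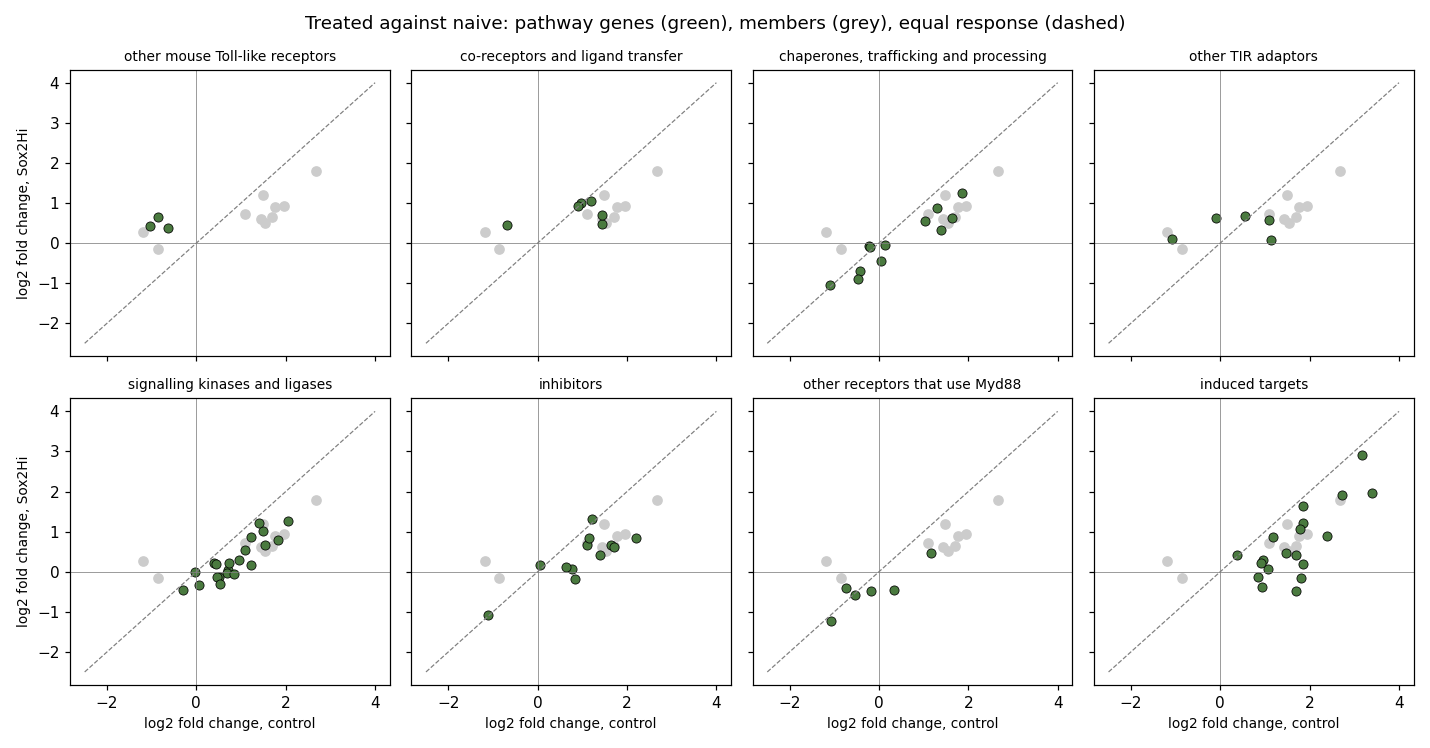
Log2 fold change on treatment in control tumours (x axis) against that in Sox2Hi tumours (y axis) for the tested genes of 8 pathway lists (green), with the 10 members in grey and the line of equal response dashed. Il12a lies farthest from 0 on the x axis among the genes named in the text, with 3.39 in control and 1.98 in Sox2Hi tumours, under the dashed line.

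The genes whose pattern over the 10 libraries was most like that of a member were found by the root mean square difference of log2(CPM + 1) after centring, among 7033 or 7034 genes averaging 10 CPM or more, as a description without a test. Tlr4 was most like Plaur, the urokinase receptor (0.066), and then Irak3, an inhibitor of Irak signalling (0.080). Tlr13 was most like Btk, a kinase of myeloid and B cells (0.073), and then Cd14 (0.083). Tlr2 was nearest to Lpcat2, an enzyme of platelet-activating factor synthesis (0.098), and Tlr6 to Atp8b4 (0.084) and Trem3 (0.094). Tlr8 was nearest to Gng2 (0.12) and Il18rap (0.13), Myd88 to Rnf114 (0.11) and H2-D1 (0.12), Tlr1 to Mgst1 (0.16) and Tlr7 to Pla2g7 (0.21). Tlr3 was nearest to Strbp (0.14), and its closest fellow member, Myd88, came at place 5953 (0.79). Among the members the closest pair was Tlr4 and Tlr13 (0.11), which held places 6 and 10 in each other's order. Tlr1 and its partner Tlr2 were farther apart (0.41), with Tlr2 at place 176 of 7033.

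Of the 10 members, Tlr7, Tlr8 and Tlr13 lie on chromosome X, and libraries differed in reads of the chromosome Y gene Ddx3y. Tlr7 was at 8.34 to 10.2 CPM in the 2 naive libraries with at most 8 such reads and at 4.99 to 10.95 CPM in the 4 naive libraries with at least 1007, and Tlr13 at 219 to 284 and 161 to 261 CPM. These naive ranges overlapped, as did those of Tlr8 and Tlr13 in treated libraries. Treated libraries of Tlr7 did not overlap, with 21.2 to 26.2 CPM at the low and 10.8 to 20.2 CPM at the high Ddx3y class, 2 libraries each with 1 from either graft. A separation of 2 libraries from 2 is common, as the treated grafts showed, and this one was noticed in 1 of 3 genes and not tested. With the class of Ddx3y reads as a covariate, all 3 genes kept their call for treatment in control tumours.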

How the data were processed

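Bulk RNA sequencing of 10 neutrophil libraries was deposited by the authors as 1 table of estimated counts per gene. The submitters' processing notes name kallisto 0.44.0 and mm10 without a role. The annotation and strand setting used are not given in the sources used here. Samples were grouped by title. The members and gene lists were chosen with earlier results of these data known.

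Estimated counts were rounded. Rows that were not mouse genes (96, at most 0.00277% of counts) were left out, and 55144 identifiers were matched to a symbol in GENCODE M21. The totals were 13815734 to 22986193 counts, which limit the low genes most. All 4 groups were fitted together without a block by edgeR 4.0.16 (R 4.3.3) quasi-likelihood tests on 29648 genes passing filterByExpr, with TMM factors from the 11270 genes averaging 5 CPM or more, 5 contrasts and Benjamini-Hochberg adjustment over all genes at 0.05. The edgeR procedure was tested on simulated data without a background that differs between groups, so the effect of such a background on the calls was not covered. DESeq2 1.42.0, limma 3.58.1 and other scalings, filters and covariates were the alternatives, 12 in all, beside leaving out each library. All 10 members are named, as are the called gene with the largest rise and that with the largest fall in each pathway list and contrast, at a mean of at least 5 CPM. Ratios were taken on counts per kb of exon. Replicates differed beyond counting noise, a chi-square of at least 12.5 for each degree of freedom. Same-numbered naive libraries deviated together (r of 0.275 to 0.478 over 3 pairs). That pairing comes from this check and not from the labels, and the block changed no naive call.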

Additional observations from a re-analysis of the deposited data

Results flagged for a closer look

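The treatment response of 10 genes named in the text differed between Sox2Hi and control tumours by the interaction term of the edgeR fit as reported, and the calls of the receptors did not hold in most fits without 1 library. Among the receptors the interaction was -0.89 for Tlr1, -1.02 for Tlr2, -1.05 for Tlr4 and -1.03 for Tlr13 on the log2 scale (-0.50, -0.67, -0.64 and -0.65 without control naive replicate 3), a lower treatment change in Sox2Hi tumours in each. Tlr4 and Tlr13 were not called for treatment in Sox2Hi tumours themselves. The call of Tlr1 was made in 4 of 11 alternatives and in 1 of 10 fits without 1 library. Those of Tlr2, Tlr4 and Tlr13 were made in 9 of 11 alternatives each and in 3, 2 and 2 of the 10 fits. All genes at 100 CPM or more had a median interaction of -0.57. Among the other genes of the pathway it was -0.97 for Cd14, -1.06 for Ctsb, -1.08 for Pik3ap1, -1.05 for Irak2, -1.36 for Tnip1 and -2.19 for Il23a. The neutrophil markers had a median interaction of -0.94, and their part in these differences was not tested.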

How the results depend on the processing

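Without 1 library, 8 to 10 of the 10 members were called for treatment in control tumours and 0 between naive grafts. In Sox2Hi tumours the count of members called on treatment, 2, became 1 with all-gene scaling or library totals only, 4 with expressed genes only, all genes with a count or DESeq2, and 5 with limma-voom with quality weights or only the groups compared, and ranged from 1 to 5 without 1 library. Between naive grafts it went from 0 to 5 with DESeq2 and 1 with limma-voom. Between treated grafts the count of 4, of which 3 were lower, became 1 with library totals only or the replicate block by description number, where only Tlr3 was called, higher, 8 with DESeq2, all lower, and 0 with only the groups compared or with background subtracted, and ranged from 0 to 6 without 1 library. For the interaction the count of 4, all lower, became 2 with library totals only, both higher (Tlr3 and Tlr9), 7 with DESeq2, all lower, and 0 with background subtracted, and ranged from 0 to 5 without 1 library. With the replicate block by title number and by description number the counts were 10 and 9 for treatment in control tumours, 2 and 3 in Sox2Hi tumours, 0 and 0 between naive grafts, 6 and 1 between treated grafts and 5 and 3 for the interaction. Outside the naive groups, same-numbered libraries correlated at -0.282 to 0.259. By title number, control treated libraries correlated with naive ones at 0.154 to 0.259, but with 2 pairs in a comparison, too few to take the numbers as pairs, and by description number at -0.259 to -0.0485.

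Estimates that changed sign were not called in the fit reported. Between naive grafts all-gene scaling gave 0.23 for Tlr1, 0.22 for Tlr6 and 0.062 for Tlr7, and DESeq2 gave 0.30 for Tlr1, 0.29 for Tlr6, 0.13 for Tlr7 and 0.053 for Tlr8. Library totals only gave -0.0034 for Tlr9 on treatment in Sox2Hi tumours, 0.14 for Myd88 between treated grafts and 0.031 for the Tlr7 interaction, and DESeq2 gave -0.14 for the Tlr3 interaction. Without 1 library the naive graft difference ranged from -0.34 to 0.032 for Tlr1, -0.061 to 0.42 for Tlr4, -0.34 to 0.15 for Tlr6, -0.70 to 0.0036 for Tlr7 and -0.076 to 0.35 for Tlr13. The interaction ranged from -0.78 to 0.27 for Tlr7 and -0.72 to 0.061 for Tlr8, Myd88 between treated grafts from -0.70 to 0.33 and Tlr3 on treatment in Sox2Hi tumours from -0.34 to 0.0058. The cause of these changes was not tested. Depth limits Tlr9 most, which had 5 to 23 reads in a library.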
